A study of Mus musculus with 12 samples.

Results

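The interferon response genes are transcripts that cells raise when type I interferon reaches them. They were chosen by gene symbol from a list of 38 such genes, and all 38 were among the 53465 genes of the count table. Of these, 34 had enough reads to be tested, among 17796 tested genes. The other 4 were Oas3, with 5 reads over the 12 libraries, Oasl1 with 44, Mx1 with 63 and Zbp1 with 66.

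Total RNA of mouse striatum, labelled as striatal cells on a C57/BL6 background, was sequenced in 4 genotypes with 3 libraries each. Q175HD/SUMO-KO mice lacked SUMO-1 and carried the Q175 neo-deleted knock-in, an expanded CAG repeat placed in the huntingtin gene Htt as a model of Huntington's disease. Q175HD mice carried the knock-in alone (line B6J.129S1-Htttm1.1Mfc/190ChdiJ), SUMO-KO mice lacked SUMO-1 alone, and WT mice carried neither change. SUMO-1 is a small protein that is joined to other proteins and alters what they do. The labels state no age, sex, number of altered Htt copies or kind of SUMO-1 deletion. The labels do not tell whether the 3 libraries of a genotype are 3 animals, and p-values then cover only the spread between libraries, which may be technical. The tissue is bulk, so a change in the number of cells that express a gene cannot be told apart from a change in RNA per cell.

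Type I interferons are secreted when a cell senses foreign or misplaced nucleic acid. They bind the receptor pair IFNAR1 and IFNAR2, whose kinases activate STAT proteins. STAT2 and IRF9 are subunits of the complex ISGF3, which binds a short DNA element, the interferon-stimulated response element (ISRE), and raises many genes that block viral replication, sense RNA and DNA, present antigen or restrain the response itself. In brain, microglia, endothelial cells, astrocytes and neurons can all respond.

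The element that ISGF3 and related factors bind can be read directly in front of several of these genes. The 200 bases before the RefSeq start (GRCm38.p6) are printed for 6 genes, chosen to show the element as a separated pair, as an overlapping run and as a single copy. Capitals mark matches to the letters GAAA, any 2 bases and GAAA again, which on the other strand read TTTC, any 2 bases and TTTC, and overlapping matches run together.
Ifit3: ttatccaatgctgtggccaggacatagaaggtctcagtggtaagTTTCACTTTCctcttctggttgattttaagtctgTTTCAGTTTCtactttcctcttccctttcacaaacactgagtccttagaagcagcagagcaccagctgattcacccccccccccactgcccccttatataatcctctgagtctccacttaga
Ifit3b: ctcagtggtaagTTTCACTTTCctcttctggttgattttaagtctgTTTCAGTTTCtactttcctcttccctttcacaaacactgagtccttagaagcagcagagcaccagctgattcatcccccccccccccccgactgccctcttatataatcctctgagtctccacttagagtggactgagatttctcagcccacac
Isg15: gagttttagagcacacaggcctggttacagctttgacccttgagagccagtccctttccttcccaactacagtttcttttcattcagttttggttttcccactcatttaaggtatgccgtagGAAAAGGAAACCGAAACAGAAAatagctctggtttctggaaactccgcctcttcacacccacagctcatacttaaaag
Rsad2: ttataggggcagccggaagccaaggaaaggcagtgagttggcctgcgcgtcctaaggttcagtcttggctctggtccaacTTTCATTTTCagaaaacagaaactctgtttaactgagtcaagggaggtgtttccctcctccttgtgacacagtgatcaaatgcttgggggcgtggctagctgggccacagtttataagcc
Trim30a: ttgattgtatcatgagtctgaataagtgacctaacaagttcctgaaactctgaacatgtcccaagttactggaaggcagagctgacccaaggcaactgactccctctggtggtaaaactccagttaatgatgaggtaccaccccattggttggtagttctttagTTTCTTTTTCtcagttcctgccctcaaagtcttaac
Bst2: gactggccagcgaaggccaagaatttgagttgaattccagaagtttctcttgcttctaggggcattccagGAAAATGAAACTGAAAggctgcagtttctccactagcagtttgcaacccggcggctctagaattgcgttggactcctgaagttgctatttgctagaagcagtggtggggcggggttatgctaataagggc
These windows lay at chr19:34583329-34583528 (plus strand) for Ifit3, chr19:34607757-34607956 (plus) for Ifit3b, chr4:156200819-156201018 (minus) for Isg15, chr12:26456453-26456652 (minus) for Rsad2, chr7:104465194-104465393 (minus) for Trim30a and chr8:71537473-71537672 (minus) for Bst2. The Ifit3 and Ifit3b windows carried the same pair of blocks, whose first bases were 156 and 122 bases before the start in Ifit3 and 188 and 154 bases before it in Ifit3b. In Isg15, 3 overlapping matches formed 1 run, and in Bst2, 2 did. Rsad2 and Trim30a had 1 match each.

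RefSeq promoter windows of 300 bases, 250 before the start and 50 after it, were found for 27 of the 38 members. The ISRE letters were present in 15 of these 27 (55.6%), in 29 of 58 other interferon-stimulated genes (50%) and in 943 of 27025 promoters of all genes (3.49%). The 15 were Ifit1, Ifit3, Ifit3b, Isg15, Oas1a, Oas3, Stat2, Rsad2, Bst2, Ifih1, Ddx58, Trim30a, Gbp2, Gbp3 and Eif2ak2. Oas1b, Oas2, Usp18, Mx1, Mx2, Ifi27, Dhx58, Rtp4, Parp9, Parp14 and Zbp1 had no entry. A match describes the letters in the window and is not evidence of binding.

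The members lay on 14 chromosomes. Ifit1, Ifit2, Ifit3 and Ifit3b were neighbours on chromosome 19, between 34550694 and 34650009 (GRCm38). Of the 6 members on chromosome 5, all of them Oas genes, the nearest to Htt lay 80 Mb from it. Oas1b and Mx2 are annotated as polymorphic pseudogenes. Of all 50-base stretches in their transcripts, Ifit3 shared 51.2% with Ifit3b, Oas1a shared 57.6% with other Oas1 genes and Rtp4 shared 11.6% with Gm45338, so how reads were split among these copies is uncertain. Irf7, Usp18, Parp9, Dtx3l, Dhx58, Rtp4, Ifi35, Eif2ak2, Oas2, Oasl1, Trim30a and Gbp2 each overlap a gene on the opposite strand. On its own strand Irf9 overlaps Rnf31, Rtp4 overlaps Gm45338 and Parp14 overlaps another annotated gene. Which strand was counted is not stated, so reads of such pairs may be mixed.

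Reads assigned to genes summed to between 9379594 and 17226419 per library. Replicates of a genotype were not copies of each other, with a chi-square per degree of freedom of 8.44 to 27.5. Markers of striatal projection neurons were present in every library, with all 15 of 15 listed genes tested. Choroid plexus markers varied widely within each genotype, from 61.82 to 5152 summed CPM (reads of a gene scaled to a common library size) over 10 genes. The female transcript Xist was abundant in WT 2, SUMO-KO 2 and Q175HD/SUMO-KO 2, so the 3 Q175HD libraries were all male.

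The library Q175HD 2 stood apart for the interferon response genes. It had the highest value of the 12 libraries for 30 of the 34 tested members (88.2%), against 7.18% of all tested genes. The median member, set against its own mean in WT, was 1.37 higher on the log2 scale in Q175HD 2. In the other Q175HD libraries it was 0.33 and 0.19 higher, in Q175HD/SUMO-KO it was 0.41, 0.09 and 0.38 higher, in SUMO-KO it was at -0.44, -0.20 and -0.32, and in the WT libraries themselves at -0.15, 0.24 and -0.05. The library medians of Q175HD/SUMO-KO all lay above those of SUMO-KO, and those of Q175HD and WT overlapped, since WT 2 was above Q175HD 3. The medians and counts of calls that rest on Q175HD 2 are given with and without it. Counts at an unadjusted p under 0.05 and counts of groups that do not overlap are given with all 12 libraries only.

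**Figure D1:**
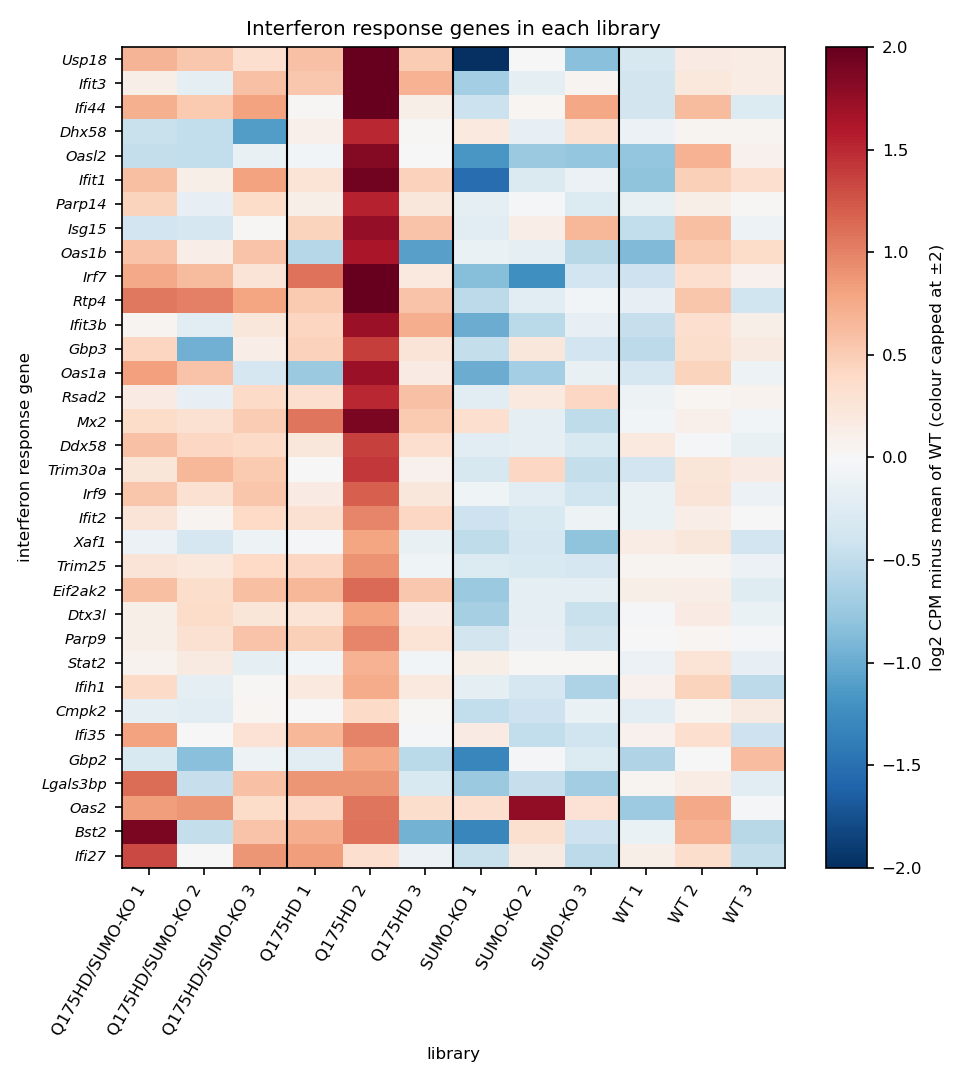
Log2 CPM of the 34 tested interferon response genes (rows) in the 12 libraries (columns), each minus the mean of the gene in WT, with the colour capped at 2 in either direction. Q175HD 2 is the darkest column, with a median of 1.37, and the 3 SUMO-KO columns are mostly blue, with medians from -0.44 to -0.20.

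Levels between genes were compared in the authors' TPM, which are scaled by transcript length. Ifi27, a small mitochondrial and nuclear membrane protein, was the most abundant member at a mean of 72.4 TPM over the 12 libraries. It was followed by the mitochondrial nucleotide kinase Cmpk2 at 20.1 TPM, and by the secreted glycoprotein Lgals3bp and the RNA-binding protein Ifit3, both at 18.3 TPM. Of the 38 members, 32 had a mean over 1 TPM, and Oas3 was the lowest at 0.0146 TPM.

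Q175HD against WT shows the knock-in in mice that have SUMO-1. All 34 tested members were higher on average in Q175HD, against 50.5% of all tested genes, but only Eif2ak2 passed the test, against 1.11% of all tested genes called higher (and 3.93% in either direction). No member was called lower, against 2.82% of all tested genes. The median log2 fold change was 0.70, against 0.00 over all tested genes. At an unadjusted p under 0.05 there were 16 members, all higher, where 17.8% of all tested genes reached it in either direction. The 3 libraries of Q175HD lay entirely above those of WT for 10 members (Rsad2, Parp9, Mx2, Eif2ak2, Usp18, Ddx58, Ifit2, Dtx3l, Ifit3b and Ifit3), and 13.6% of all tested genes did so. No member lay entirely below WT, against 14.3%. In the same comparison the 7 cortical neuron markers had a median log2 fold change of -2.15, with all 7 at an unadjusted p under 0.05 and Nptx1, Emx1 and Fezf2 called lower by edgeR.

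Eif2ak2 encodes PKR, a kinase that senses double-stranded RNA and halts translation. It had 12.4, 17.2 and 11.3 CPM in Q175HD libraries 1, 2 and 3, against 8.37, 8.46 and 6.56 CPM in WT. Every Q175HD library was above every WT library, with library 2 the highest. The log2 fold change was 0.81 (SE 0.20, edgeR quasi-likelihood, Benjamini-Hochberg adjusted p = 0.0388). The call was lost in 7 of 12 fits that left out 1 library (any library of Q175HD or WT, or Q175HD/SUMO-KO 1), where the edgeR adjusted p reached 0.168 without Q175HD 2, and it was lost with sex as a covariate (edgeR adjusted p = 0.0519).

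The second knock-in comparison, Q175HD/SUMO-KO against SUMO-KO, sets other libraries against each other, although one fit to all 12 libraries gives both comparisons a shared estimate of the spread. Of 34 members, 29 were higher on average in Q175HD/SUMO-KO, against 50.6% of all tested genes. Eif2ak2 was again the 1 member that passed, against 3.19% of all tested genes called higher (7.81% in either direction). None was called lower, against 4.61%. The median log2 fold change was 0.58, against 0.00 over all tested genes. At an unadjusted p under 0.05 there were 12 members, all higher, where 24.4% of all tested genes reached it in either direction. The libraries of Q175HD/SUMO-KO lay entirely above those of SUMO-KO for 14 members, against 13.8% of all tested genes, and entirely below them for Dhx58, against 11% of all tested genes.

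Here Eif2ak2 had 11.8, 9.94 and 11.8 CPM in Q175HD/SUMO-KO, against 4.53, 6.78 and 6.73 CPM in SUMO-KO. The groups did not overlap, and the lowest Q175HD/SUMO-KO library was above every WT library too. The log2 fold change was 0.89 (SE 0.20, edgeR adjusted p = 0.0166). It missed the threshold without Q175HD/SUMO-KO 1, Q175HD/SUMO-KO 3 or SUMO-KO 1, in 3 of the 12 fits that left out 1 library, with an edgeR adjusted p of 0.0652 at most.

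The group means of both knock-in comparisons come from separate libraries, so the directions of the fold changes are set beside each other. The p-values of both rest on the shared estimate of the spread. A higher average with the knock-in in both was found for 29 of 34 members (85.3%), against 37% of all tested genes. For 10 members (29.4%), against 4.64% of all tested genes, both were higher with an unadjusted p under 0.05. These were Trim25, Irf9, Parp9, Eif2ak2, Irf7, Usp18, Rtp4, Ddx58, Ifit2 and Dtx3l. Both counts include Q175HD 2 and were not made without it. In Q175HD against WT alone, 27 of 34 members were higher without Q175HD 2, with a median of 0.28.

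Averaging both knock-in effects, over mice with and without SUMO-1, uses all 12 libraries. Of 34 members, 13 rose with the knock-in and 0 fell, where 8.04% of all tested genes were called higher and 8.83% lower (16.9% together). The median was 0.65, against 0.00 over all tested genes, and 33 of 34 were above 0, against 49.9% of all tested genes. At an unadjusted p under 0.05 there were 20 members, all higher, against 31.9% of all tested genes in either direction. DESeq2 called all 13 as well, and Ifit1, Ifit3 and Ifi27 besides, 16 in all, and it called 18.5% of all tested genes in either direction. All 6 knock-in libraries lay above all 6 others for Parp9, Eif2ak2, Usp18 and Ddx58, which 3.81% of all tested genes did, and below them for no member, against 4.35%. Without Q175HD 2 the median was 0.44 and 9 members were called, with 13.1% of all tested genes called in either direction. Without both Q175HD 2 and Q175HD/SUMO-KO 1, an alternative chosen after seeing the data, Parp9, Eif2ak2 and Ifit2 were the 3 of 34 called, with 8.36% of all tested genes called in either direction, so the members' share was then near the background.

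**Figure D2:**
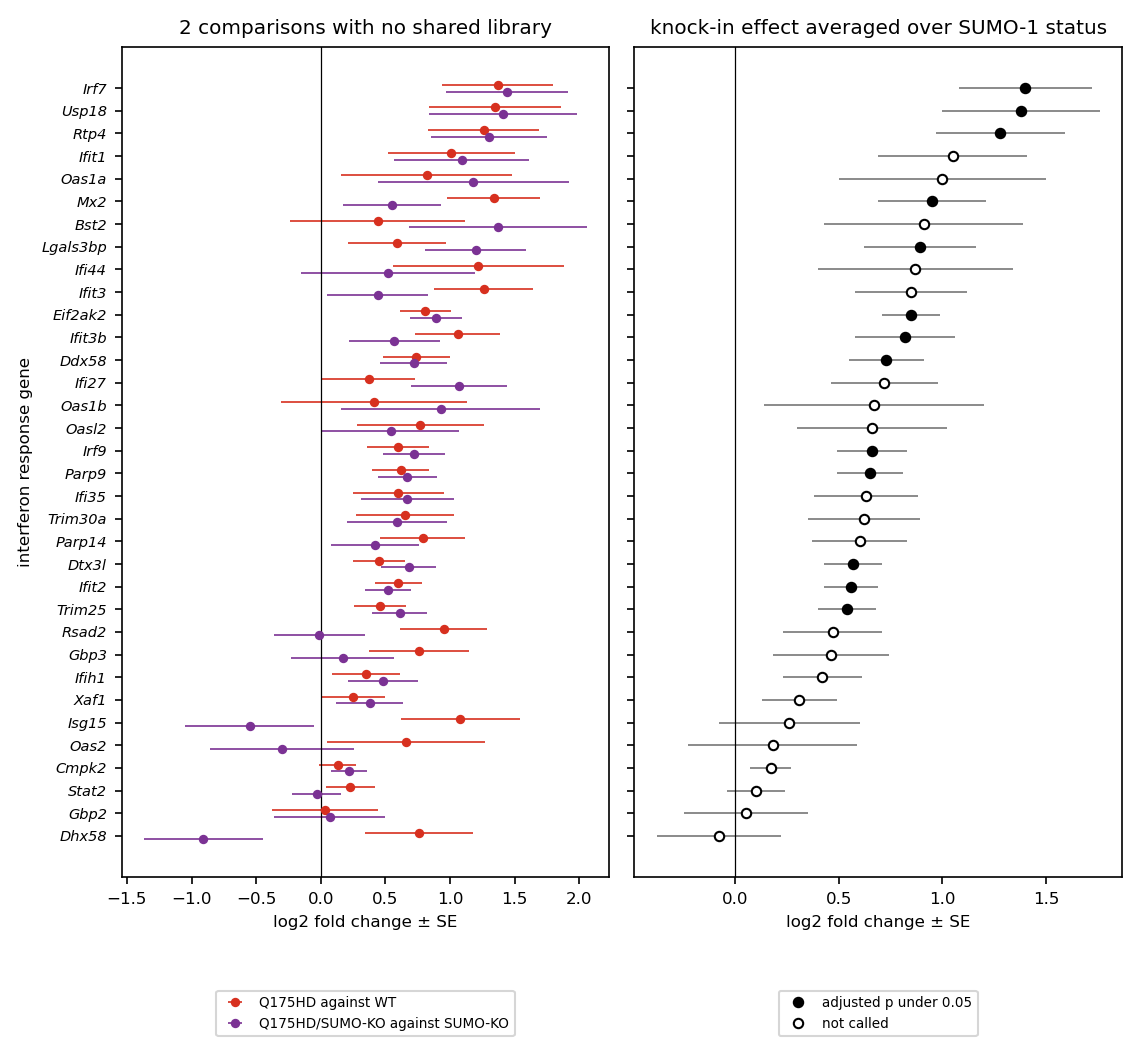
Log2 fold change ± SE of each tested member. The left panel sets Q175HD against WT beside Q175HD/SUMO-KO against SUMO-KO, and the right panel gives the knock-in effect averaged over SUMO-1 status, where filled points mark the 13 members with an adjusted p under 0.05. In the right panel 33 of 34 points lie right of 0, and in the left panel Dhx58 and Isg15 differ most between the colours.

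Among the factors that carry or amplify the signal, 4 of 6 tested rose with the averaged knock-in effect, namely Irf7, Irf9, Parp9 and Dtx3l. Of all tested genes, 8.04% were called higher. Irf7 is the transcription factor that amplifies interferon production. It had 4.07, 8.41 and 2.13 CPM in Q175HD, against 1.34, 2.35 and 1.94 CPM in WT. It had 3.22, 2.95 and 2.22 CPM in Q175HD/SUMO-KO, against 0.948, 0.698 and 1.36 CPM in SUMO-KO. Q175HD 3 was under WT 2, and the groups without SUMO-1 did not overlap. The averaged log2 effect of the knock-in on Irf7 was 1.40 (SE 0.32, edgeR adjusted p = 0.0099), the largest among the members, and it lay between 1.08 and 1.58 when any 1 library was left out, always past the threshold.

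Irf9, the DNA-binding subunit of ISGF3, had 12.1, 24.7 and 12.6 CPM in Q175HD, against 9.71, 12.8 and 9.98 CPM in WT. In the other pair it had 15.8, 13.4 and 15.9 CPM in Q175HD/SUMO-KO, against 10.1, 9.28 and 8.09 CPM in SUMO-KO. Only WT 2 broke the separation of Q175HD and WT, and the groups without SUMO-1 were apart. The averaged log2 effect was 0.66 (SE 0.17, edgeR adjusted p = 0.0184). Stat2, the other ISGF3 subunit in the list, did not pass, with an averaged effect of 0.10 (SE 0.14, edgeR adjusted p = 0.668).

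Parp9 and Dtx3l encode a complex that ADP-ribosylates and ubiquitinates proteins and increases interferon signalling. Parp9 had 5.41, 7.73 and 4.65 CPM in Q175HD and 4.18, 4.8 and 5.77 CPM in Q175HD/SUMO-KO, all above the 3.85, 3.94 and 3.73 CPM of WT and the 2.95, 3.39 and 2.94 CPM of SUMO-KO. The averaged log2 effects were 0.65 for Parp9 (SE 0.16, edgeR adjusted p = 0.0143) and 0.57 for Dtx3l (SE 0.14, edgeR adjusted p = 0.0168). The 2 genes overlap at their ends. Parp14, a related ADP-ribosyltransferase, missed the threshold at 0.60 (SE 0.23, edgeR adjusted p = 0.0962).

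Among the RNA sensors and the proteins that work with them, Eif2ak2, Ddx58 and Trim25 rose with the averaged knock-in effect, 3 of 5 tested. The share of all tested genes called higher was 8.04%. Eif2ak2 had the lowest adjusted p of the members, with an averaged log2 effect of 0.85 (SE 0.14, edgeR adjusted p = 0.00138). Ddx58 encodes RIG-I, a helicase that detects viral RNA ends. It had 7.3, 16.1 and 7.91 CPM in Q175HD, against 7.12, 6.03 and 5.59 CPM in WT, and 9.41, 8.34 and 8.17 CPM in Q175HD/SUMO-KO, against 5.37, 5.39 and 5.01 CPM in SUMO-KO. The knock-in libraries were all above the others, though Q175HD 1 exceeded WT 1 by little. Its averaged effect was 0.73 (SE 0.18, edgeR adjusted p = 0.0159). Trim25, the ubiquitin ligase that activates RIG-I, had an averaged effect of 0.54 (SE 0.14, edgeR adjusted p = 0.0225).

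The helicases Ifih1 (MDA5, a sensor of long double-stranded RNA) and Dhx58 (LGP2, which regulates both other helicases) did not pass. For Ifih1 the averaged log2 effect was 0.42 (SE 0.19, edgeR adjusted p = 0.141). Dhx58 had 1.47, 4.13 and 1.4 CPM in Q175HD, against 1.26, 1.42 and 1.42 CPM in WT, but 0.965, 0.926 and 0.541 CPM in Q175HD/SUMO-KO, against 1.58, 1.2 and 1.72 CPM in SUMO-KO. Q175HD 1 and 3 were near WT and Q175HD 2 was well above it, and every Q175HD/SUMO-KO library was below every SUMO-KO library. The difference between both knock-in effects was -1.67 (SE 0.62) with an unadjusted p of 0.0178, and it did not pass the test over all genes (edgeR adjusted p = 0.997). Zbp1, the sensor of left-handed nucleic acid, was too low to be tested and had 14 reads in Q175HD 2 against 2 to 7 in the other libraries.

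The IFIT proteins bind the 5′ ends of foreign RNA. Among them Ifit3 had the greatest excess in a single library, with 10.8, 31 and 12.1 CPM in Q175HD, against 5.69, 8.54 and 8.2 CPM in WT. It had 7.96, 6.4 and 11.1 CPM in Q175HD/SUMO-KO, against 4.53, 6.48 and 7.67 CPM in SUMO-KO. The Q175HD and WT libraries did not overlap, and the libraries without SUMO-1 did. The log2 fold change of Ifit3 in Q175HD against WT was 1.26 (SE 0.38, edgeR adjusted p = 0.0984), and without Q175HD 2 it was 0.62. In the authors' deposited table the same comparison had a log2 fold change of 1.27 and an adjusted p of 0.0153 for Ifit3.

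Ifit3b, the near copy with the same promoter blocks, rose with the knock-in on average by 0.82 (SE 0.24, edgeR adjusted p = 0.0347), a call lost in 7 of the 12 fits that left out 1 library. Ifit2 was steadier. It had 13, 20.7 and 14 CPM in Q175HD, against 9.54, 11.4 and 10.4 CPM in WT, and 12.5, 10.9 and 13.8 CPM in Q175HD/SUMO-KO, against 7.79, 8.38 and 9.74 CPM in SUMO-KO. Neither pair overlapped, and the averaged log2 effect was 0.56 (SE 0.13, edgeR adjusted p = 0.00946). Ifit1 had an averaged effect of 1.05 (SE 0.36) and missed the threshold (edgeR adjusted p = 0.0621).

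Isg15 is a ubiquitin-like modifier, made like SUMO-1 as a small protein that is joined to others, and Usp18 removes it and also blocks the interferon receptor. Usp18 had 2.18, 6.68 and 2.06 CPM in Q175HD, against 1.09, 1.59 and 1.56 CPM in WT. In Q175HD/SUMO-KO it had 2.33, 2.11 and 1.8 CPM, against 0.211, 1.4 and 0.716 CPM in SUMO-KO. All knock-in libraries were above all others, and SUMO-KO 1 was by far the lowest. The averaged log2 effect was 1.38 (SE 0.38, edgeR adjusted p = 0.0255), and it was 0.99 without Q175HD 2, when the edgeR adjusted p was 0.0615.

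Isg15 itself behaved unlike Usp18. It had 1.26, 3.38 and 1.4 CPM in Q175HD, against 0.586, 1.42 and 0.82 CPM in WT, and 0.643, 0.674 and 0.901 CPM in Q175HD/SUMO-KO, against 0.737, 0.997 and 1.5 CPM in SUMO-KO. Each pair of groups overlapped, and the highest Q175HD/SUMO-KO library was under the lowest Q175HD library. The difference between both knock-in effects was -1.64 (SE 0.68), with an unadjusted p of 0.0303 and an edgeR adjusted p of 0.997. These values rest on 7 to 45 reads per library.

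**Figure D3:**
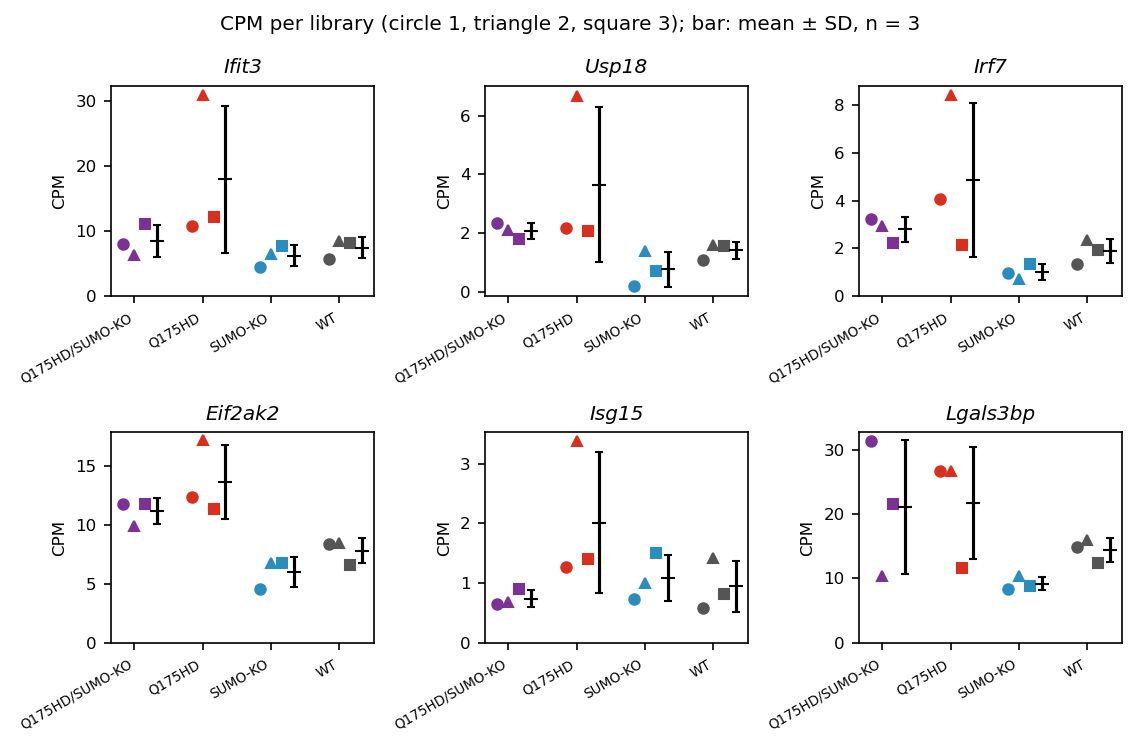
CPM of 6 interferon response genes in each library (circle, triangle and square for libraries 1, 2 and 3) with the mean and SD of each genotype (n = 3). The triangle of Q175HD is the highest point for Ifit3, Usp18, Irf7, Eif2ak2 and Isg15, and Lgals3bp is highest in the circle of Q175HD/SUMO-KO.

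The OAS enzymes make the second messenger that activates RNase L, and the MX and GBP proteins are large GTPases that act on viruses and other microbes. Of the 4 OAS genes tested, Oas1a, Oas1b, Oas2 and Oasl2, none passed, with averaged log2 effects from 0.18 for Oas2 to 1.00 for Oas1a (edgeR adjusted p = 0.8 and 0.184). Their levels were low, with 2 to 30 reads per library for Oas1a. Oas2 was the 1 member whose highest value was in SUMO-KO 2, at 1.7 CPM.

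Mx2 rose with the knock-in by 0.95 on average (SE 0.26, edgeR adjusted p = 0.0257). It had 3.09, 5.56 and 2.06 CPM in Q175HD, against 1.34, 1.51 and 1.34 CPM in WT, and 1.85, 1.77 and 2.04 CPM in Q175HD/SUMO-KO, against 1.79, 1.2 and 0.931 CPM in SUMO-KO. Q175HD was clear of WT, and SUMO-KO 1 overlapped Q175HD/SUMO-KO. Gbp2 and Gbp3 did not pass, with averaged effects of 0.05 (SE 0.30) and 0.46 (SE 0.28), and edgeR adjusted p of 0.927 and 0.276.

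Of the 10 other effectors tested, Rtp4 and Lgals3bp rose with the averaged knock-in effect, where 8.04% of all tested genes were called higher. Rtp4, a chaperone of receptors that also binds viral RNA, had 2.11, 6.46 and 2.19 CPM in Q175HD, against 1.26, 2.18 and 1.04 CPM in WT. It had 3.14, 3.03 and 2.58 CPM in Q175HD/SUMO-KO, against 0.948, 1.2 and 1.36 CPM in SUMO-KO. WT 2 lay just above Q175HD 1, and the groups without SUMO-1 were well apart. The averaged log2 effect was 1.28 (SE 0.31, edgeR adjusted p = 0.014) and stayed between 0.91 and 1.46 when any 1 library was left out.

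Lgals3bp, Bst2 and Ifi27 differed from the rest in having their highest value in Q175HD/SUMO-KO 1. That library also had the most Col1a1, a collagen of meningeal fibroblasts, at 82.83 CPM, and 4721 CPM of the choroid plexus transcript Ttr. The 8 meningeal fibroblast markers also summed highest there, at 154.9 CPM, against at most 54.56 CPM in the other libraries. Their median log2 CPM over WT was 0.72 there and 0.77 in Q175HD 1. The 10 choroid plexus markers summed to 5094 CPM there and to 5152 CPM in Q175HD 1, where Ttr was at 4674 CPM. Bst2 (tetherin, which holds virus particles on the cell) had 8.04, 1.43 and 3.13 CPM in Q175HD/SUMO-KO, against 0.737, 2.59 and 1.5 CPM in SUMO-KO, and the groups overlapped. Its averaged effect was 0.91 (SE 0.48, edgeR adjusted p = 0.222). Lgals3bp had 31.3, 10.4 and 21.5 CPM in Q175HD/SUMO-KO, against 8.42, 10.4 and 8.74 CPM in SUMO-KO. Library 1 was far above library 2, which was level with SUMO-KO 2. Its averaged log2 effect was 0.89 (SE 0.27, edgeR adjusted p = 0.0452), and this call was lost in 10 of the 12 fits that left out 1 library. Ifi27 missed the threshold at 0.72 (SE 0.26, edgeR adjusted p = 0.0839). The part of fibroblast RNA in these values was not tested. With the summed choroid plexus markers as a covariate, an alternative chosen after seeing the data, all 13 averaged calls were still made.

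Rsad2 (viperin, which makes a chain-terminating nucleotide) had 2.11, 4.88 and 2.52 CPM in Q175HD, against 1.51, 1.68 and 1.71 CPM in WT. It had 1.85, 1.43 and 2.16 CPM in Q175HD/SUMO-KO, against 1.37, 1.9 and 2.22 CPM in SUMO-KO. The first pair of groups did not overlap and the second did, with log2 fold changes of 0.95 (SE 0.34) and -0.01 (SE 0.35) and edgeR adjusted p of 0.153 and 0.985. The remaining effectors, Ifi35, Ifi44, Xaf1, Trim30a and Cmpk2, had averaged log2 effects between 0.17 for Cmpk2 and 0.87 for Ifi44 and did not pass.

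Of the 13 members called for the averaged effect, 8 were called whichever single library was left out. These were Ddx58, Dtx3l, Eif2ak2, Ifit2, Irf7, Irf9, Parp9 and Rtp4. The calls of Ifit3b, Lgals3bp, Mx2, Trim25 and Usp18 were each lost at least once. Trim25 was lost without Q175HD/SUMO-KO 3, Usp18 without Q175HD 2, Q175HD/SUMO-KO 1 or WT 1, and Mx2 without Q175HD 2, Q175HD/SUMO-KO 3, SUMO-KO 2 or WT 1. Ifit3b was called without Q175HD 1, Q175HD 3, Q175HD/SUMO-KO 2, SUMO-KO 3 or WT 2, and Lgals3bp without Q175HD 3 or Q175HD/SUMO-KO 2. For Q175HD against WT the median of the 34 members was 0.28 without Q175HD 2, when 27 of 34 were above 0 and no member was called. For Q175HD/SUMO-KO against SUMO-KO it lay between 0.51 and 0.63 whichever library was left out. In this comparison 0 members were called without Q175HD/SUMO-KO 1, Q175HD/SUMO-KO 3 or SUMO-KO 1. The shares of all tested genes called in either direction were then 4.07%, 4.52% and 4.67%. Called members numbered 3 without Q175HD/SUMO-KO 2 (7.43% of all tested genes), 4 without Q175HD 3 (6.6%) and 7 without Q175HD 2 (6.19%). The last 2 libraries are in neither group of this comparison.

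**Figure D4:**
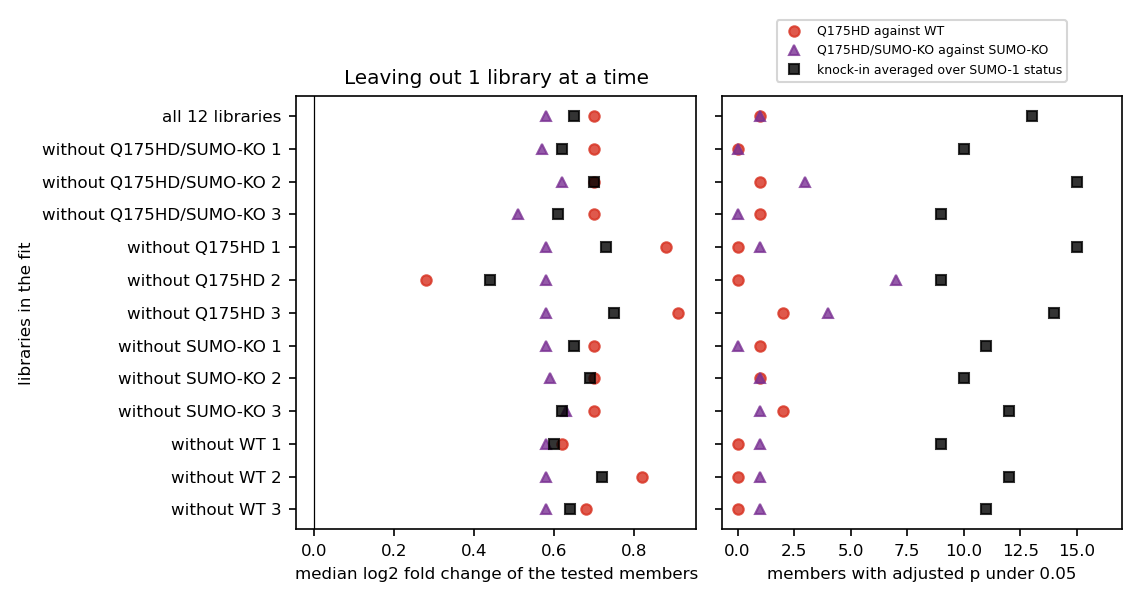
Median log2 fold change of the 34 tested members (left) and number with an adjusted p under 0.05 (right) with all 12 libraries and with each left out, for 3 comparisons. The median for Q175HD against WT is 0.70 with all libraries and 0.28 without Q175HD 2, and that for Q175HD/SUMO-KO against SUMO-KO stays between 0.51 and 0.63.

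The next comparisons ask what the loss of SUMO-1 changes. In SUMO-KO against WT no member passed edgeR's test, where 0.045% of all tested genes did (0.0112% higher and 0.0337% lower), and DESeq2 also called 0. Cmpk2 and Xaf1 had an unadjusted p under 0.05, both lower, as 13.5% of all tested genes had in either direction. The median log2 fold change was -0.32, against 0.02 over all tested genes, and 28 of 34 were below 0, where 54.1% of all tested genes were above it. All libraries of SUMO-KO lay below those of WT for Trim25, Parp9, Lgals3bp, Ddx58 and Dtx3l, 5 members, and 6.54% of all tested genes did so. They lay entirely above WT for no member, against 7.59%. SUMO-KO 1 had the lowest microglial, oligodendrocyte and antigen presentation medians of its group, at -0.35, -0.60 and -0.42, beside a member median of -0.44. Without WT 2 the median of the comparison was -0.20 and 9 of 34 members were above 0. In the same comparison all 10 oligodendrocyte markers were lower, with a median of -0.23 and 0 called, and all 7 cortical neuron markers were lower, with a median of -2.04, 5 at an unadjusted p under 0.05 and 0 called by edgeR. The part of cell makeup in this was not tested.

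In Q175HD/SUMO-KO against Q175HD, 0 members passed edgeR's test, against 0.0337% of all tested genes (0.0225% higher and 0.0112% lower), and DESeq2 called 0. The median was -0.33, against 0.04 over all tested genes, and 31 of 34 were below 0, where 57.7% of all tested genes were above it. Dhx58, Ifit3b, Isg15, Ifit3, Mx2, Oasl2 and Rsad2 had an unadjusted p under 0.05, all lower, with log2 fold changes between -1.53 and -0.79, and 5.28% of all tested genes had such a p in either direction. The libraries of Q175HD/SUMO-KO lay entirely below those of Q175HD for 5 members, against 6.65% of all tested genes, and entirely above them for none, against 6.35%. Without Q175HD 2 the median was 0.01, with 17 of 34 above 0, so the lower median rested on that library. In the same comparison all 10 oligodendrocyte markers were lower, with a median of -0.37 and 6 at an unadjusted p under 0.05. Of 19 microglial markers 14 were lower, 7 of them without overlap, with a median of -0.14. None of these markers was called, and their part in the members' values was not tested.

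Averaged over Htt status, the loss of SUMO-1 gave a median of -0.32, against 0.03 over all tested genes, with 31 of 34 members below 0 and 0 called by edgeR, where 0.0787% of all tested genes were called (0.0562% higher and 0.0225% lower) and 56.2% were above 0. At an unadjusted p under 0.05 there were 11 members, all lower, against 15.7% of all tested genes in either direction, led by Ifit3b at -0.81 (SE 0.24, edgeR adjusted p = 0.226) and Oasl2 at -1.15 (SE 0.36, edgeR adjusted p = 0.238). DESeq2 called Oasl2 lower. Without Q175HD 2 the median was -0.20 and 10 of 34 were above 0. All 10 oligodendrocyte markers were lower in this contrast, with a median of -0.30, 7 at an unadjusted p under 0.05 and 0 called by edgeR, and their part in the members' values was not tested. No member had all 6 libraries without SUMO-1 on 1 side of the other 6, against 0.32% of all tested genes above and 0.242% below. Oasl2, an OAS-like protein that works with RIG-I, had 3.14, 3.12 and 3.97 CPM in Q175HD/SUMO-KO, against 4.28, 16.1 and 4.38 CPM in Q175HD, and 1.9, 2.59 and 2.51 CPM in SUMO-KO, against 2.51, 7.29 and 4.69 CPM in WT. Q175HD/SUMO-KO lay below Q175HD, and SUMO-KO 2 was level with or above WT 1.

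Whether the knock-in effect itself depends on SUMO-1 was tested by the interaction. No member passed edgeR's test, none of the 17796 tested genes did (0%), and DESeq2 called 0 members. Dhx58 and Isg15 had an unadjusted p under 0.05, where 4.33% of all tested genes did, and 49% of all tested genes had a positive interaction. The median interaction of the members was 0.04 with all libraries and 0.43 without Q175HD 2. The 7 cortical neuron markers had a median interaction of 2.71, with 6 at an unadjusted p under 0.05 and 0 called by edgeR. An effect of the knock-in that differs by SUMO-1 status was not detectable for any member with 3 libraries per group.

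The signal upstream of these genes was examined through lists of pathway genes. The 21 interferon genes together had 9 reads over the 12 libraries, and 14 of them had 0 reads. Ifnb1, which encodes interferon beta, had 0 reads in every library. No read of any of the 21 fell in Q175HD 2, the library with the highest interferon response. A count of 0 allows up to 0.18 to 0.316 CPM per library, which covers counting error only.

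The receptor genes were well detected. Ifnar1 had 53.7 ± 3.39 CPM in Q175HD/SUMO-KO and 46.2 ± 3.07 CPM in SUMO-KO, and 50.6 ± 2.06 CPM in Q175HD and 48.8 ± 1.68 CPM in WT (SD, n = 3 each). Ifnar2 was between 8.28 ± 1.4 CPM in SUMO-KO and 11.2 ± 2.01 CPM in WT. Neither passed for the averaged knock-in effect, with log2 changes of 0.14 for Ifnar1 (SE 0.06, edgeR adjusted p = 0.131) and 0.10 for Ifnar2 (SE 0.13, edgeR adjusted p = 0.623). Against 8.04% of all tested genes called higher, 2 of the 11 receptor, kinase and STAT genes tested rose. Of these, the interferon-gamma receptor subunit Ifngr2 rose by 0.44 (SE 0.09, edgeR adjusted p = 0.00496).

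Of 19 genes that sense nucleic acid or relay the signal, 2 rose with the averaged knock-in effect and 0 fell, a share near the 8.04% of all tested genes called higher. Irf3, the factor that starts interferon transcription, rose by 0.32 (SE 0.08, edgeR adjusted p = 0.016), and Myd88, the adaptor of Toll-like receptors, by 0.53 (SE 0.15, edgeR adjusted p = 0.0283). Of 21 genes that restrain the pathway, 1 fell and 1 rose, where 8.83% of all tested genes were called lower and 8.04% higher. Adar, which edits double-stranded RNA so that it is not sensed, fell by 0.24 on the log2 scale (SE 0.07, edgeR adjusted p = 0.0266). It had 149, 163 and 153 CPM in Q175HD, against 195, 180 and 185 CPM in WT, and 151, 169 and 149 CPM in Q175HD/SUMO-KO, against 187, 158 and 196 CPM in SUMO-KO. Q175HD lay below WT, and SUMO-KO 2 overlapped Q175HD/SUMO-KO. Rnaseh2a, a subunit of the enzyme that removes RNA from DNA, rose by 0.33 (SE 0.10, edgeR adjusted p = 0.041).

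A second list of 52 tested interferon-stimulated genes that are not members had a median averaged knock-in effect of 0.26, against 0.65 for the members, with 6 higher and 0 lower, where 8.04% of all tested genes were called higher and 8.83% lower. Zc3hav1 (ZAP, which destroys viral RNA rich in CG pairs) had 19.2, 25.3 and 16.6 CPM in Q175HD, against 12.5, 9.72 and 11.6 CPM in WT, and 16.9, 16.2 and 18.9 CPM in Q175HD/SUMO-KO, against 8.53, 11 and 9.6 CPM in SUMO-KO. Neither pair overlapped, and the averaged effect was 0.84 (SE 0.12, edgeR adjusted p = 0.000355). Like Eif2ak2, Zc3hav1 was called in each knock-in comparison on its own, with edgeR adjusted p of 0.0117 and 0.00798. The GTPases Igtp and Irgm1 rose by 0.77 and 0.71 (edgeR adjusted p = 0.0123 and 0.0177), and Samd9l, which restrains translation of viral messages, by 0.73 (edgeR adjusted p = 0.0153). Sp110 was called lower in Q175HD/SUMO-KO against SUMO-KO, with 0, 0.0842 and 0 CPM in Q175HD/SUMO-KO, against 0, 0.698 and 0.86 CPM in SUMO-KO.

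Antigen presentation genes, many of them raised by interferon, had 6 of 22 higher and 0 lower for the averaged knock-in effect, beside the same shares of all tested genes, with a median of 0.39. Psme1, a subunit of the proteasome activator PA28, had 26.3, 24.4 and 27.9 CPM in Q175HD, against 15, 14.7 and 17.9 CPM in WT, and 29.8, 26.7 and 29.9 CPM in Q175HD/SUMO-KO, against 13.7, 15.5 and 13.9 CPM in SUMO-KO. The knock-in libraries were all above the others, and here Q175HD 2 was the lowest of its group. The averaged effect of Psme1 was 0.86 (SE 0.08, edgeR adjusted p = 1.25e-05). Its partner Psme2 rose by 0.51 (SE 0.08, edgeR adjusted p = 0.000964), the immunoproteasome subunit Psmb10 by 0.55 (SE 0.13, edgeR adjusted p = 0.0141) and the class I molecule H2-D1 by 0.42 (SE 0.11, edgeR adjusted p = 0.0212).

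**Figure D5:**
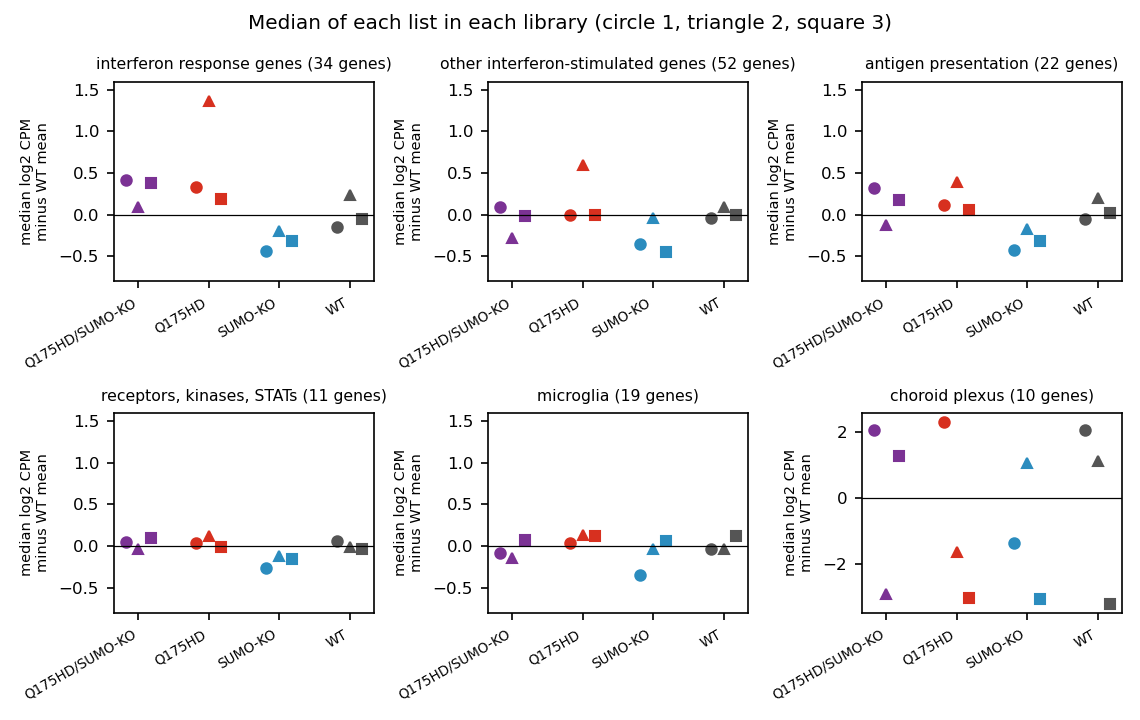
Median log2 CPM minus the WT mean of each gene, for 6 gene lists in the 12 libraries (circle, triangle and square for libraries 1, 2 and 3), with a wider axis for the choroid plexus list. Q175HD 2 is highest for the interferon response genes at 1.37 and for the other interferon-stimulated genes at 0.60, and the microglia list stays between -0.35 and 0.13.

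Interferon response genes led the genes that stood out in Q175HD 2. Among 11863 genes with a mean of at least 50 reads, of which 21 are members, 8 of the 10 genes with the greatest excess in Q175HD 2 over the next highest library were members, as were 11 of the first 20 and 16 of the first 50, so most of the first 50 were other genes. Of the genes that are not members, the giant ubiquitin ligase Rnf213 had the greatest excess, with 95.6 CPM in Q175HD 2 against at most 40.3 CPM in the other 11 libraries. It was followed by Lgals9 with 8.11 against at most 4.52 CPM, and Gbp7 with 11.3 against at most 7.23 CPM. Mag, a myelin gene, was also among the first 10 non-members, with 388 CPM in Q175HD 2 against at most 266 CPM elsewhere.

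Markers of the cells that could carry the response were set beside it. The 19 microglial markers were all detected, and their summed level was 596.6 to 707.7 CPM in Q175HD/SUMO-KO, 666.5 to 692.5 in Q175HD, 508.8 to 671.3 in SUMO-KO and 601.8 to 674.6 in WT, with overlap between all 4 groups. With the averaged knock-in effect 2 of the 19 rose, where 8.04% of all tested genes were called higher. They were the protease Ctss, by 0.41 (SE 0.09, edgeR adjusted p = 0.0098), and the transcription factor Sall1, by 0.24 (SE 0.07, edgeR adjusted p = 0.0294). In Q175HD 2 the microglial sum was 692.5 CPM, within the range of the other libraries. Its microglial median of 0.13 was the highest of the 12 libraries, against 0.12 in Q175HD 3 and WT 3. There 18 of the 19 markers were above their WT mean, against 15 in WT 3. The part of microglia in the interferon values was not tested. The oligodendrocyte sum was 9671 CPM in Q175HD 2, the highest of the 12 libraries, where the other 11 had 4574 to 8830 CPM, and its part in the interferon values was not tested.

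Markers of blood cells were low. Of 14 markers of border macrophages, monocytes and neutrophils, 4 had enough reads to be tested, and all 14 together summed to 8.126 to 13.96 CPM over the 12 libraries. Of the neutrophil markers, Ly6g was at 0 throughout, S100a8 had at most 0.563 CPM and S100a9 at most 1.05 CPM, both in Q175HD/SUMO-KO 1. Of 17 lymphocyte markers, 2 were tested. Cd4 made up most of the lymphocyte sum, at 17.4 to 70.4 CPM, and fell by 0.66 with the averaged knock-in effect (SE 0.17, edgeR adjusted p = 0.0241). The T cell genes Cd3e, Cd3d and Cd3g had at most 0.241 CPM in any library. Which cells the Cd4 reads came from was not tested. In Q175HD 2 the B cell gene Cd79b was at 0.451 CPM, against at most 0.399 CPM in the other 11 libraries, and the T cell gene Cd3g at 0.225 CPM, against at most 0.241 CPM. The part of such cells in the interferon values was not tested.

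The summed endothelial and pericyte markers were 382.7 to 509.3 CPM in Q175HD/SUMO-KO, 425.9 to 443.7 in Q175HD, 374.6 to 449.3 in SUMO-KO and 440.7 to 456.4 in WT. The striatal projection neuron markers moved the other way, with 14 of 15 called lower, against 8.83% of all tested genes, and a median averaged effect of -0.95. Among 10 astrocyte markers, 2 fell, beside the same share of all tested genes, and 0 rose. These were the glutamate transporter Slc1a2 and the growth factor receptor Fgfr3, by 0.39 and 0.23 (edgeR adjusted p = 0.00358 and 0.0419). Cortical neuron markers summed to 55.95 to 213.7 CPM in Q175HD/SUMO-KO, 38.27 to 118.7 in Q175HD, 77.99 to 141.5 in SUMO-KO and 212.3 to 804.9 in WT. The vesicular glutamate transporter Slc17a7 had 12.89 to 106.4 CPM in the 9 libraries of the other genotypes, against 384.5, 244.8 and 106.4 CPM in WT. The part of cortical tissue in the interferon values was not tested.

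In the authors' deposited tables, made with DESeq2 for each pair of genotypes, the members called at an adjusted p under 0.05 were Ifit3, Ifit3b, Mx2 and Eif2ak2 in Q175HD against WT (all higher, with 5.98% of genes called) and Dtx3l, Lgals3bp and Eif2ak2 in Q175HD/SUMO-KO against SUMO-KO (all higher, with 9.5% called). The authors' deposited tables called 0 members in SUMO-KO against WT (1.51% of genes called), in Q175HD/SUMO-KO against Q175HD (0.085%) and in Q175HD/SUMO-KO against WT (10.8%). For Q175HD against SUMO-KO, which differ in both genes, the authors' deposited table called 20 members, all higher in Q175HD, with 13.2% of genes called.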

How the data were processed

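Total RNA was isolated with a Qiagen miRNeasy kit and made into directional libraries after depletion of ribosomal RNA, per the labels' protocols. Tools listed in the submitters' processing notes are DESeq2, Bowtie 1.1.2, STAR 2.5.2a and cutadapt 2.10, with the builds mm10 and GRCm38. The counting tool and strand setting were not given in the sources used here. A deposited table holds whole-number read counts per gene, unnormalized by the authors. TPM values, named so per the file headers, are the authors' and were used for levels between genes. The authors deposited log2 fold changes and adjusted p-values per gene from DESeq2, used here for comparison alone.

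Counts were tested with edgeR 4.0.16 (R 4.3.3), after filterByExpr (minimum count 10, minimum total 15) and TMM scaling, by a robust quasi-likelihood fit of 4 group means to all 12 libraries, with Benjamini-Hochberg adjustment over 17796 genes and a threshold of 0.05. Depth was 9379594 to 17226419 reads. The SE is the log2 fold change divided by the square root of F. Library medians use log2 CPM with a prior count of 2. Alternatives were DESeq2 1.42.0, its size factors, other filters, a replicate block, sex, and each library left out. The steps were tested on simulated data.

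The members and lists were chosen with earlier results of these data known, so the list itself gets no test. All members may be named. Other genes were named if called within a list, up to 4 a direction, if among the 10 non-members with the greatest excess in Q175HD 2 at a mean count of 50 or more, or if fixed (Ifnb1, Ifnar1, Ifnar2 and Xist among them). Some genes of this rule are not reported here. Col1a1, Ttr, Ly6g, S100a8, S100a9, Cd3g, Cd79b, Slc17a7 and Rnf31 were named after their values or positions were seen. Promoter sequences are from RefSeq (GRCm38.p6) and gene positions from GENCODE M21.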

Additional observations from a re-analysis of the deposited data

How the results depend on the processing

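The median of the 34 tested members kept its sign for the knock-in, whichever setting was used, but its size in Q175HD against WT depended on Q175HD 2: it lay between 0.28 and 0.91 when 1 library was left out, and was 0.28 without both Q175HD 2 and Q175HD/SUMO-KO 1. The median interaction lay between -0.21 and 0.43. Shares of all genes called in either direction under the same setting are given in brackets. Members called in Q175HD against WT (1 as reported) numbered 3 with DESeq2 (6.08%) and 4 of 38 with no filter (2.07%). They numbered 0 with sex as a covariate (3.67%), 0 without both libraries (0.722%), and 0 to 2 with 1 library left out (1.16% to 5.25%). In Q175HD/SUMO-KO against SUMO-KO (1 as reported) they numbered 3 with DESeq2 (10.1%), 3 with no filter (3.96%) and 2 with sex (8.09%). There were 2 with the choroid plexus covariate (7.02%), 0 without both libraries (2.81%) and 0 to 7 with 1 left out (4.07% to 13.2%). For the averaged knock-in effect (13 as reported) they numbered 3 without both libraries (8.36%) and 9 to 15 with 1 left out (11% to 21.1%). For the averaged loss of SUMO-1 (0 as reported) DESeq2 called 1 (1.24%). With 1 library left out 0 to 1 were called, and it was 1 without SUMO-KO 3 (6.41%). The choroid plexus covariate and the removal of both libraries were chosen after seeing the data, and the causes of these changes were not tested. With the replicate number as a block, 2 members were called in Q175HD/SUMO-KO against SUMO-KO (9.58%) and 1 in Q175HD against WT (4.44%). For the averaged effect 14 were called with that block (18.7%). The labels do not say that the numbers pair the libraries. Of 18 same-numbered pairs, 11 had a correlation of deviations over 0.1 (range -0.228 to 0.574). Among the libraries of other genotypes, 10 of 12 libraries correlated best with 1 of their own number, a hint from the data and not the design. Depth limits the OAS genes, Isg15 and the 4 untested members most, and a group of 3 libraries limits every interaction.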

Other observations

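Among the 4 members too low for the test, Mx1, Oasl1 and Zbp1 had their highest count in Q175HD 2, and Oas3 was tied there. Mx1, a gene of the MX family, had 19 reads in Q175HD 2 and 1 to 11 in the other 11 libraries. Oasl1, which represses translation of Irf7, had 11 reads in Q175HD 2 and at most 6 elsewhere. Oas3 had 2 reads in Q175HD 2, 2 in WT 3 and 1 in Q175HD/SUMO-KO 1. These counts were not tested.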
